A study of Rattus norvegicus with 32 samples.

Results

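Control rats were examined at 2 sites of the small intestine: the jejunum, just past the duodenum, and the ileum, the last stretch before the cecum. The arrays titled control jejunum and control ileum were taken, 4 of each, which makes 8 of the 32 arrays of the series. Jejunum pool 1 was set against ileum pool 1, and so on to pool 4, because a pool held RNA of the same rats in every tissue. All 19434 transcript clusters of the array entered the tests. Of these, 13335 carried exactly 1 gene symbol and stood for 13222 named genes, since 103 genes had more than 1 cluster.

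The study compared virgin with lactating Sprague-Dawley rats in liver, duodenum, jejunum and ileum on exon arrays. The controls were virgin females, matched in age to the lactating dams and labelled control for treatment. Lactating dams, used here only for comparison, had nursed for 10 to 11 days. Each state had 16 rats in 4 pools of 4 rats, so the spread between arrays is that between pools and the spread between single rats was not seen. The jejunum was a stretch of 20 cm that began 10 cm past the ligament of Treitz, and the ileum was the 20 cm before the cecal valve. The study's methods describe scraped mucosa, whereas the sample labels describe homogenates of the whole tissue. All rats were killed at hour 16 of the day.

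The small intestine divides its work along its length. The upper part digests and takes up most sugar, fat, amino acids, folate and minerals, and the terminal ileum recovers bile acids and vitamin B12. Bile acids that enter ileal enterocytes activate the nuclear receptor Fxr (gene Nr1h4), which induces a hormone of the fibroblast growth factor family that travels to the liver and slows bile acid synthesis. Crypts hold stem cells and, at their base, Paneth cells that secrete antimicrobial proteins, while the lymphoid Peyer patches and the bacterial load increase toward the ileum.

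Levels are robust multichip average (RMA) values on the log2 scale, so a difference of 1 is a 2-fold difference. Every difference is jejunum minus ileum, positive where the jejunum was higher, and is given ± the standard error of the limma fit with pools paired. A cluster was called where the p adjusted by the Benjamini-Hochberg method over all clusters was under 0.05. The lower quartile of all values on these 8 arrays was 3.06, and the table carries no detection call. A fold difference between a high value and one near that level is therefore a ratio of measured values and not a bound. Because each sample is a bulk RNA of many cell types, fewer cells of a type and less RNA per cell cannot be told apart.

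The segments differed widely. Of 19434 clusters, 4311 were called (22.2%), 1230 higher in jejunum (6.33%) and 3081 higher in ileum (15.9%). Among the 13222 named genes, 3699 were called (28.0%), 1023 higher in jejunum (7.74%) and 2676 higher in ileum (20.2%). Large differences were more even between the segments: 65 named genes were higher in jejunum by 2 or more and 66 were higher in ileum by as much. At 4 or more, 12 genes were higher in jejunum and 8 in ileum. The 4 arrays of a segment lay wholly apart from the 4 of the other for 4372 clusters (22.5%). The split between the directions depended on how arrays were scaled. The array medians were 4.68 to 4.76 in jejunum and 4.78 to 4.85 in ileum, and the share of calls higher in jejunum, 28.5% as deposited, was 45.5% with array medians set equal and 46.3% with these arrays quantile normalised again. The median difference of all clusters was -0.02 as deposited, 0.09 with equal medians and 0.02 with quantile normalisation, and -0.06 over named genes as deposited.

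**Figure D1:**
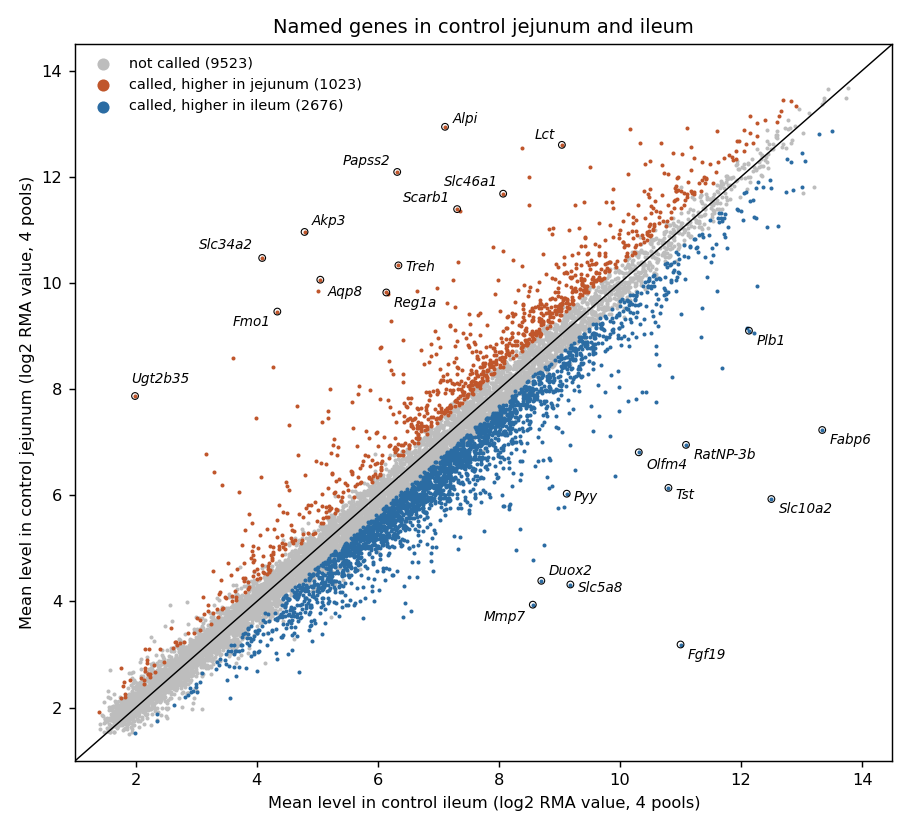
Mean level of each named gene in control ileum (x axis) and control jejunum (y axis), both log2 RMA values over 4 pools, with the line of equal level. Orange points (1023) were called higher in jejunum and blue points (2676) higher in ileum. Circled genes are named, with Slc34a2, Ugt2b35 and Alpi far above the line and Fgf19, Slc10a2 and Fabp6 far below it.

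Arrays of one segment correlated at 0.981 to 0.990 and arrays of different segments at 0.963 to 0.977, and the first principal component, with 48.1% of the variance, separated the segments. Among the genes with large differences, the pools did not share the extreme values evenly. Among the 65 genes higher in jejunum by 2 or more, ileum pool 2 was the highest ileum array for 47, against 3 to 8 for the other pools. Among the 66 genes higher in ileum by 2 or more, jejunum pool 1 was the highest jejunum array for 36, against 5 to 18 for the others. In the segment where the genes were high, the lowest array was ileum pool 1 for 34 of the 66 ileal genes, with ileum pool 2 the lowest for 6, and jejunum pool 4 for 25 and jejunum pool 1 for 22 of the 65 jejunal genes. On the first principal component ileum pool 2, at 0.36, lay within the range of the other ileum arrays, 0.31 to 0.38. With pool 1 left out of both segments 3552 clusters were called, and with pool 2 left out 2533. With pool 3 or pool 4 left out the counts were 2624 and 2356.

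The bile acid pathway held the 3 genes with the largest ileal excess of all named genes. Slc10a2, the sodium-dependent bile acid transporter of the brush border, Fabp6, the ileal bile acid binding protein of the cytosol, and Fgf19, the hormone induced by Fxr, stood at the steps of uptake, transit and signal. An inverted repeat in the human FABP6 promoter is known to bind FXR, and the human sequence was not compared with that of the rat here. The promoters of Slc10a2 and Fabp6 are shown because both genes were among those 3. They are RefSeq sequences of the build GRCr8, from 250 bases before to 50 after the annotated start, and each is written 5′ to 3′ on the strand of its gene. The Slc10a2 window lies at chr16:91087839-91088138 on the plus strand, with capitals marking the Hnf1 half-site GTTAAT and the Gata word TGATAA, both on the opposite strand, first bases at -227 and -194 from the start. The Fabp6 window lies at chr10:28569678-28569977 on the minus strand, with capitals marking the word GGTGAATAACCT, first base at -154.
Slc10a2: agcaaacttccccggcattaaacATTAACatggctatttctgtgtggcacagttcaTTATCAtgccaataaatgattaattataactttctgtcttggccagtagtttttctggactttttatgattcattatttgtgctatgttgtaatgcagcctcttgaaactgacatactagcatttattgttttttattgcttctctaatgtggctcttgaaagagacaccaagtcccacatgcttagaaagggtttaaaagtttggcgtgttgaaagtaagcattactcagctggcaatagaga
Fabp6: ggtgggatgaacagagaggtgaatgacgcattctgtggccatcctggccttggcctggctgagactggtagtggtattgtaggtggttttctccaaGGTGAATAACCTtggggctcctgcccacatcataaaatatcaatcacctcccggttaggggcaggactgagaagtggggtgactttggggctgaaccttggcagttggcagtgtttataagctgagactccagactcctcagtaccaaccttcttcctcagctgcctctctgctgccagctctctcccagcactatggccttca
GGTGAATAACCT was read from the Fabp6 window itself, so its match there was fixed in advance. Searched on both strands, it was found in 1 of 27457 promoter windows of the RefSeq table (0.00364%). That window was the one of Fabp6, and the count says only that no other window held the word. The idealised repeat AGGTCANTGACCT was found in 7 windows (0.0255%) and in no window of a called gene. Windows existed for 10804 of the 13222 named genes, Fgf19 and Nr1h4 not among them. A match of letters is a description of the window and shows no binding.

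Fgf19 differed most of all named genes. In pools 1 to 4 it measured 3.09, 2.41, 4.05 and 3.21 in jejunum and 10.58, 10.88, 11.73 and 10.80 in ileum. Every jejunum pool was near the low end of the scale and every ileum pool was high, with no overlap. The difference was -7.81 ± 0.18, a 224-fold higher value in ileum (adjusted p = 5.79e-05).

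Slc10a2 measured 6.26, 6.05, 5.69 and 5.71 in jejunum pools 1 to 4 and 12.47, 12.21, 12.70 and 12.61 in ileum. All ileum pools were high and alike, and the groups were far apart. The difference was -6.57 ± 0.18, or 95.2-fold (adjusted p = 8.26e-05).

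Fabp6 measured 10.48, 5.68, 6.79 and 5.98 in jejunum and 13.61, 13.21, 13.43 and 13.12 in ileum. Ileum pools were uniformly high, whereas jejunum pool 1 was far above the other jejunum pools, so that the jejunum had the wider spread (SD 2.21 against 0.22). The difference was -6.11 ± 0.72 (adjusted p = 0.00367), and -7.10 without pool 1.

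The receptor itself, Nr1h4, measured 7.95, 8.06, 7.53 and 7.53 in jejunum and 10.07, 10.13, 10.19 and 10.16 in ileum. The groups did not overlap and the ileum pools differed little among themselves. Its difference was -2.37 ± 0.14, a 5.17-fold higher value in ileum (adjusted p = 7.47e-04). Of the 10 measured genes of bile acid uptake and Fxr signalling, 8 were called higher in ileum and none higher in jejunum, with a median difference of -1.14. Nr0b2, a repressor induced by Fxr, differed by -1.03 ± 0.16. Slc51a, a subunit of the basolateral bile acid exporter, differed by -1.10 ± 0.11 while being high in both segments, 11.75 and 12.85. The efflux pump Abcc3 differed by -1.19 ± 0.10. Abcc4, another efflux pump, differed by -0.48 ± 0.09 with overlapping arrays, and its call ended without pool 2, 3 or 4 and with quantile normalisation repeated. The bile acid receptor of the cell surface, Gpbar1 (-0.03 ± 0.18), and the Fxr partner Rxra (0.12 ± 0.09) were not called.

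Sugar digestion and uptake was higher in jejunum throughout. All 10 measured genes were called higher in jejunum, with a median difference of 1.56. Lct, the lactase of the brush border, measured 12.46, 12.62, 12.63 and 12.68 in jejunum and 9.22, 10.21, 7.62 and 9.13 in ileum. Jejunum pools were almost equal and the ileum pools ranged widely, pool 2 highest and pool 3 lowest, without overlap. The difference was 3.55 ± 0.39 (adjusted p = 0.00318). Treh, the trehalase that splits the sugar of fungi and insects, measured 10.53, 10.34, 10.41 and 10.05 in jejunum and 6.63, 7.03, 5.71 and 6.0 in ileum. As with Lct, ileum pool 2 was highest and pool 3 lowest. Its difference was 3.99 ± 0.22, 15.9-fold (adjusted p = 6.16e-04). The glucose-6-phosphatase G6pc1 differed by 3.64 ± 0.16 and the basolateral hexose carrier Slc2a2 by 1.96 ± 0.17.

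Intestinal alkaline phosphatase, which dephosphorylates lipids and bacterial lipopolysaccharide at the brush border, gave some of the largest jejunal excesses. Alpi measured 12.94, 12.99, 12.94 and 12.88 in jejunum and 6.58, 7.86, 6.55 and 7.48 in ileum. The jejunum pools were nearly identical and all ileum pools were far lower. The difference was 5.83 ± 0.24, 56.7-fold (adjusted p = 2.7e-04). Its paralog Akp3 differed by 6.17 ± 0.30 (adjusted p = 4.25e-04), and probes shared between the paralogs cannot be told apart in gene-level values.

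The windows of Lct and Alpi are shown as jejunal counterparts to those of the bile acid genes. Gata factors are known to bind the lactase promoter, and whether they have a part in the segment difference was not tested. The Alpi window held no Gata word, while that of the ileal gene Slc10a2 held TGATAA. Lct lies at chr13:42376823-42377122 on the minus strand, with capitals marking AGGTCA on the opposite strand at -210 and the Gata word AGATAA on the opposite strand at -115 and on the gene's strand at -104. Alpi lies at chr9:95224731-95225030 on the minus strand, with capitals marking AGGTCA on the opposite strand at -147.
Lct: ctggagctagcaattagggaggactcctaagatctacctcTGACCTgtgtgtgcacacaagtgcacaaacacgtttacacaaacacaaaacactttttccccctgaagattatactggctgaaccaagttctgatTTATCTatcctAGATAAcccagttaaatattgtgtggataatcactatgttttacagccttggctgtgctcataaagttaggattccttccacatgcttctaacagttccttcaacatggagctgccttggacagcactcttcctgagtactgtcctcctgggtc
Alpi: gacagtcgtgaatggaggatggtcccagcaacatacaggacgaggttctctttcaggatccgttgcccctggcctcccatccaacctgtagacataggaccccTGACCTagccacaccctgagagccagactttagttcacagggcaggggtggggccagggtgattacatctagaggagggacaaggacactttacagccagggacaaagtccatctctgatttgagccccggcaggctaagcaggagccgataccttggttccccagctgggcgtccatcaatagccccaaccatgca
The Gata words searched, on either strand, were AGATAA and AGATAG. The forms TGATAA and TGATAG were counted with them. One of these words was present in 29.9% of all promoter windows and in 24.4% of those of named genes. It was present in 202 of 836 windows of genes called higher in jejunum and in 437 of 2183 of genes called higher in ileum. GTTAAT was present in 7.37%, 5.95%, 6.22% and 4.76% of the windows of all genes, named genes, genes higher in jejunum and genes higher in ileum, in that order. AGGTCA, which also lies within AGGTCANTGACCT, was present in 15.7%, 13.4%, 17.3% and 10.9%. These shares are descriptions and were not tested.

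Among phosphate carriers the large difference was that of Slc34a2. Slc34a2, the sodium-phosphate cotransporter of the enterocyte, measured 10.11, 10.40, 10.82 and 10.53 in jejunum pools 1 to 4 and 4.01, 3.96, 4.27 and 4.13 in ileum. Each segment was tight and the groups were far apart. Its difference of 6.37 ± 0.11, 82.9-fold (adjusted p = 1.39e-05), was the largest toward the jejunum among named genes. The sulphate carrier Slc13a1 ran the other way, 11.06 ± 0.19 in jejunum and 12.42 ± 0.11 in ileum (SD, n = 4; difference -1.36 ± 0.13). Of the 11 measured phosphate, sulphate and zinc carriers, 2 were called in each direction (18.2% each). That share was above the 7.74% of all named genes toward the jejunum and near the 20.2% toward the ileum. The second toward the jejunum was the metal carrier Slc39a14 (0.74 ± 0.10). The second toward the ileum, the phosphate carrier Slc20a1 (-0.34 ± 0.09), lost its call in 8 of the alternatives, among them the fit without pairing and each omission of a pool.

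Papss2, which makes the activated sulphate used by sulphotransferases, measured 12.19, 12.10, 12.02 and 12.04 in jejunum and 6.38, 6.45, 6.30 and 6.15 in ileum. It was uniformly high in the former and uniformly lower in the latter, with a difference of 5.77 ± 0.09, 54.5-fold (adjusted p = 1.39e-05).

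Vitamin uptake was mostly higher in jejunum, with 9 of 16 measured genes called there, 2 called higher in ileum and a median of 0.46. The proton-coupled folate carrier Slc46a1 measured 11.56, 11.78, 11.76 and 11.62 in jejunum and 7.60, 9.19, 7.28 and 8.19 in ileum. Jejunum pools agreed closely, and ileum pool 2 was the highest ileal value. The difference was 3.61 ± 0.30, 12.3-fold (adjusted p = 0.00156). Ggh, which trims the glutamate tail of folates, differed by 1.24 ± 0.10, and the thiamine carrier Slc19a3 by 2.04 ± 0.13. Cubn, the cubilin receptor for vitamin B12 bound to intrinsic factor, measured 11.11, 11.55, 11.38 and 11.63 in jejunum and 10.22, 10.64, 9.06 and 9.59 in ileum. It was high in both segments and higher in jejunum, without overlap (1.54 ± 0.28, adjusted p = 0.0127). That call ended when pool 4 was left out. The 2 genes called higher in ileum both handle vitamin B12 inside or at the basolateral side of cells: Mmachc (-1.0 ± 0.16) and the transcobalamin receptor Cd320 (-0.91 ± 0.20), the latter not called without pool 2, 3 or 4. Retinoid handling had 4 of 12 measured genes called, all higher in jejunum (33.3%, against 7.74% of all named genes), at a median of 0.04. Among these, Bco1, which cleaves beta-carotene, differed by 3.48 ± 0.09 (adjusted p = 7.56e-05), the retinaldehyde dehydrogenase Aldh1a1 by 2.19 ± 0.20 and the retinol binding protein Rbp2 by 1.28 ± 0.14.

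Fat handling was higher in jejunum for most of its steps. Of 24 measured genes of fat uptake and chylomicron assembly, 19 were called higher in jejunum and 2 higher in ileum, with a median of 0.85. Scarb1, a lipoprotein and cholesterol receptor, measured 11.33, 11.43, 11.31 and 11.49 in jejunum and 6.98, 8.20, 6.98 and 7.09 in ileum. Ileum pool 2 stood above the other ileum pools, and no ileum array approached the jejunum. The difference was 4.08 ± 0.22, 16.9-fold (adjusted p = 5.5e-04). The lipid droplet protein Plin2 differed by 2.98 ± 0.16 and Dgat2, which makes triglyceride, by 1.83 ± 0.11. The fatty acid binding protein Fabp1 was high in both segments with overlapping arrays (0.41 ± 0.11), and its call ended without pairing and without pool 2, 3 or 4. Plb1, a brush border phospholipase, went the other way. It measured 8.91, 10.06, 8.22 and 9.21 in jejunum and 12.25, 12.46, 11.68 and 12.13 in ileum. In both segments pool 2 was highest and pool 3 lowest, and the groups did not overlap (-3.03 ± 0.19, adjusted p = 8.64e-04). The cholesterol exporter Abca1 was the other gene of the list higher in ileum (-0.75 ± 0.09).

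Fatty acid oxidation and cholesterol synthesis ran in opposite directions. Of 19 measured genes of fatty acid oxidation and ketogenesis, 17 were called higher in jejunum and none higher in ileum (median 0.59). Pdk4, the kinase that restrains pyruvate oxidation, differed by 3.21 ± 0.15, the coactivator Ppargc1a by 1.95 ± 0.13 and the dienoyl reductase Decr1 by 1.76 ± 0.14. Cpt1a, the mitochondrial gate for fatty acids, differed by 0.39 ± 0.10 and lost its call when any 1 pool was left out. Of 17 measured genes of cholesterol synthesis and Ldl uptake, 15 were called higher in ileum and none higher in jejunum (median -0.82). Sqle, the squalene epoxidase, measured 8.23, 8.16, 7.96 and 7.81 in jejunum and 10.07, 9.72, 10.18 and 9.96 in ileum. The groups were well apart, with a difference of -1.94 ± 0.14 (adjusted p = 0.00113). The isomerase Idi1 differed by -1.84 ± 0.11, the squalene synthase Fdft1 by -1.78 ± 0.14 and the sterol methyl oxidase Msmo1 by -1.60 ± 0.11.

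**Figure D2:**
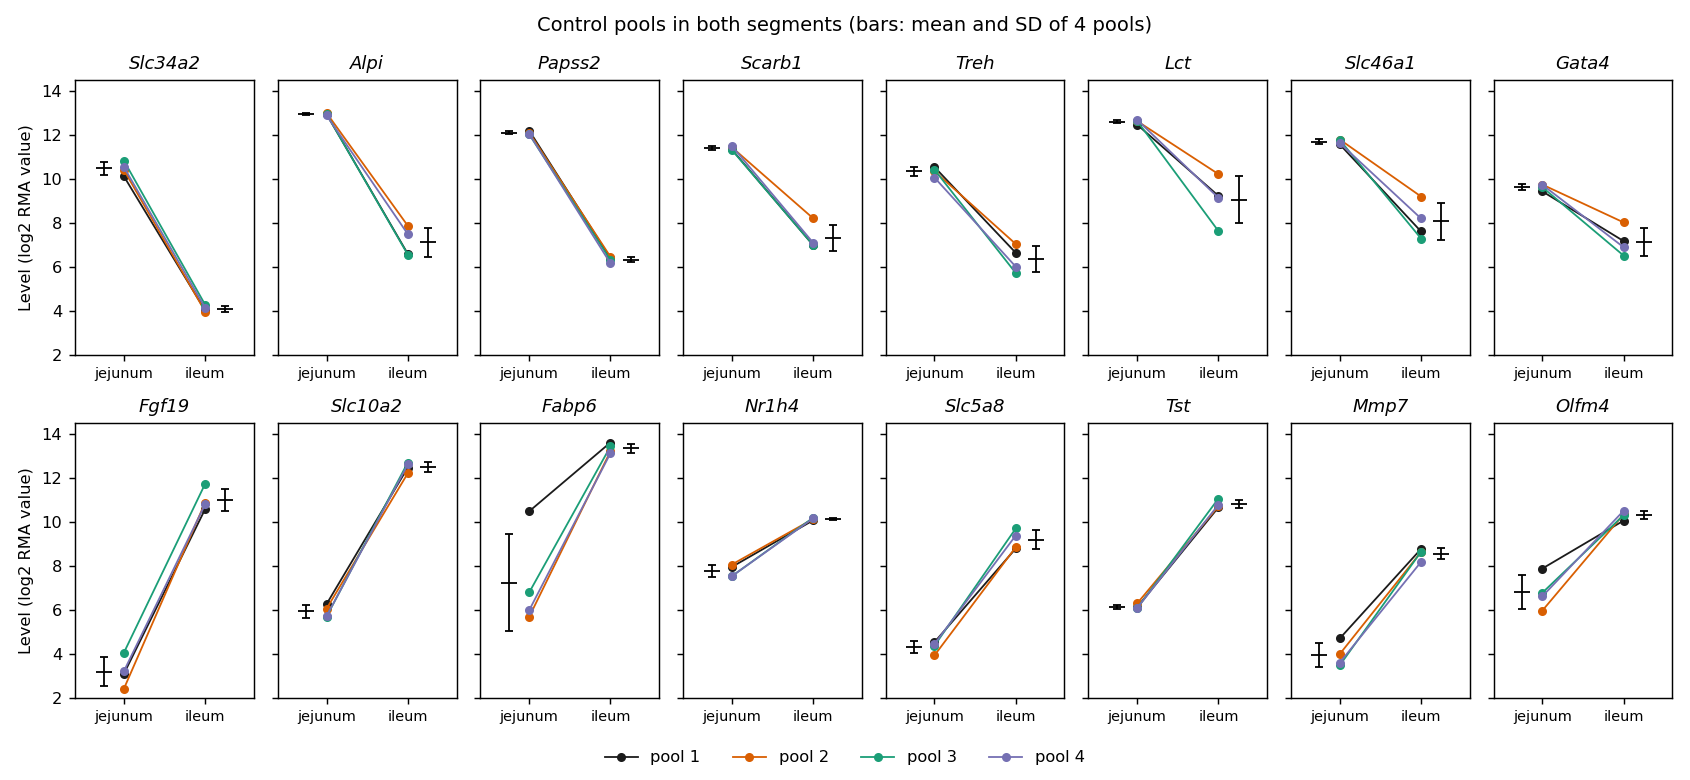
Level (log2 RMA value, y axis) of 16 genes in jejunum and ileum of control pools 1 to 4, with a line joining the same pool and bars for mean and SD of 4 pools. The upper row holds genes higher in jejunum, where ileum pool 2 is often the highest ileal point, and the lower row genes higher in ileum, where jejunum pool 1 stands out for Fabp6 (10.48).

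Among called genes of foreign compound metabolism, more were higher in jejunum than in ileum. Of 27 measured phase 1 enzymes and their sensors, 15 were called higher in jejunum (55.6%, against 7.74% of all named genes). In this list 1 was called higher in ileum and 11 were not called (median 0.47). Fmo1, a flavin monooxygenase, measured 9.29, 9.83, 9.32 and 9.42 in jejunum and 4.12, 5.45, 3.92 and 3.88 in ileum. Pool 2 was highest in both segments, and the groups were far apart (5.12 ± 0.20, 34.9-fold, adjusted p = 2.34e-04). Cyp1a1, the enzyme induced through the aryl hydrocarbon receptor, differed by 2.82 ± 0.29, the fatty acid hydroxylase Cyp4a1 by 2.12 ± 0.18 and the carboxylesterase Ces2c by 1.77 ± 0.12. Of 17 measured conjugation enzymes, 6 were called higher in jejunum (35.3%), 2 were called higher in ileum (11.8%) and 9 were not called. The glucuronosyltransferase Ugt2b35 measured 8.0, 7.99, 7.94 and 7.55 in jejunum and 2.22, 1.89, 1.59 and 2.25 in ileum. Its ileal values all lay under the lower quartile of the arrays (5.88 ± 0.18, adjusted p = 1.1e-04). Ugt2b7 differed by 3.60 ± 0.18, and members of the Ugt2b family are similar in sequence, so that signal may be shared between them. The sulphotransferase Sult1a1 was higher in ileum (-0.94 ± 0.09) and Sult1b1 higher in jejunum (0.60 ± 0.10).

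Of 20 measured efflux pumps and organic ion carriers, 4 were called higher in jejunum (20%, against 7.74% of all named genes). Another 7 were called higher in ileum (35%, against 20.2% of all named genes). Slc5a8, a sodium-coupled carrier of lactate and short-chain fatty acids, measured 4.53, 3.93, 4.37 and 4.45 in jejunum and 8.79, 8.85, 9.70 and 9.38 in ileum. Ileum pools were all high and jejunum pools all low (-4.86 ± 0.18, 29-fold, adjusted p = 2.18e-04). The export pump Abcg2 (-1.02 ± 0.10) and the organic anion carrier Slco2b1 (-1.11 ± 0.10) were higher in ileum, and the nucleoside carrier Slc28a1 was higher in jejunum (1.93 ± 0.17). Abcb1a, the drug pump P-glycoprotein, differed by -0.64 ± 0.13 and was not called without pool 2 or 3 or with equal array medians.

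Protein digestion was mixed. Anpep, aminopeptidase N, was high in both segments and not called, 13.20 ± 0.12 in jejunum and 13.12 ± 0.06 in ileum (SD, n = 4; difference 0.08 ± 0.10). Of 9 measured brush border peptidases, 4 were called higher in jejunum (44.4%, against 7.74% of all named genes). The dipeptidyl carboxypeptidase Ace led them (1.80 ± 0.18). The share called higher in ileum was 11.1%, against 20.2% of all named genes. Xpnpep2, an aminopeptidase specific for proline, was the 1 called higher in ileum (-0.35 ± 0.10), a call that ended in 8 alternatives. Among 18 peptide and amino acid carriers, 7 were called higher in jejunum (38.9%, against 7.74%) and 6 higher in ileum (33.3%, against 20.2%). The neutral amino acid carrier Slc7a8 (1.88 ± 0.18) and the proton-coupled carrier Slc36a1 (2.18 ± 0.18) were higher in jejunum. Slc1a1, the glutamate carrier of the brush border, measured 5.81, 5.94, 6.17 and 6.12 in jejunum and 7.83, 7.91, 8.20 and 8.26 in ileum, with no overlap (-2.04 ± 0.09, adjusted p = 2.7e-04). Dao, the D-amino acid oxidase, measured 8.11, 8.44, 8.49 and 8.58 in jejunum and 4.27, 4.59, 4.10 and 4.10 in ileum (4.14 ± 0.15). Of 13 genes of citrulline, ornithine and glutamine metabolism, 4 were called, all higher in jejunum (30.8%, against 7.74%). Among them were the arginase Arg2 (1.07 ± 0.10) and the alanine aminotransferase Gpt (0.95 ± 0.09).

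Of 32 measured genes of ion and water transport, 7 were called higher in jejunum (21.9%, against 7.74% of all named genes) and 8 higher in ileum (25%, near the 20.2% of all named genes). The water channel Aqp8 measured 10.02, 10.06, 9.85 and 10.31 in jejunum and 5.10, 5.48, 5.0 and 4.62 in ileum (5.01 ± 0.19, adjusted p = 2.21e-04). Another water channel, Aqp4, measured 5.33, 4.84, 5.09 and 4.97 in jejunum and 8.72, 8.61, 8.29 and 9.35 in ileum (-3.68 ± 0.20, adjusted p = 6.27e-04). Neither overlapped between segments, and the directions were opposite. The carbonic anhydrases did likewise, Car2 differing by 2.77 ± 0.23 and Car12 by -2.23 ± 0.12. The sodium-proton exchanger Slc9a3 was higher in jejunum (2.21 ± 0.16), and the secretory cotransporter Slc12a2 (-1.81 ± 0.14) and its companion potassium channel Kcnq1 (-1.70 ± 0.12) were higher in ileum. Best4, a bicarbonate-permeable chloride channel that marks a rare type of enterocyte in human, measured 8.33 to 8.93 in jejunum and 3.45 to 3.82 in ileum (4.99 ± 0.15).

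Several genes of mineral uptake were higher in the control duodenum than in either segment, a description that was not tested. Slc40a1, the iron exporter ferroportin, had a mean level of 12.79 in duodenum, 10.40 in jejunum and 7.33 in ileum, and differed between the last pair by 3.07 ± 0.22 (adjusted p = 0.00117). The iron importer Slc11a2 stood at 11.22 in duodenum and at 8.34 and 8.56 in jejunum and ileum, a pair that was not called (-0.22 ± 0.10). Of 10 measured iron genes, 3 were called higher in jejunum and 2 higher in ileum (20%, close to the share of all named genes), the transferrin receptor Tfrc among the latter (-1.15 ± 0.10). The calcium channel Trpv6 stood at 10.00 in duodenum, 4.75 in jejunum and 4.56 in ileum, and the last pair was not called (0.18 ± 0.14). The calcium binding protein S100g measured 11.62, 10.46, 10.28 and 9.80 in jejunum and 9.44, 8.72, 8.27 and 8.47 in ileum. Pool 1 was highest in both segments, and the difference was 1.82 ± 0.15 (adjusted p = 0.00177). The vitamin D receptor Vdr differed by 0.93 ± 0.09. Cldn2, a claudin that forms paracellular cation pores, was higher in ileum (-2.34 ± 0.16).

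**Figure D3:**
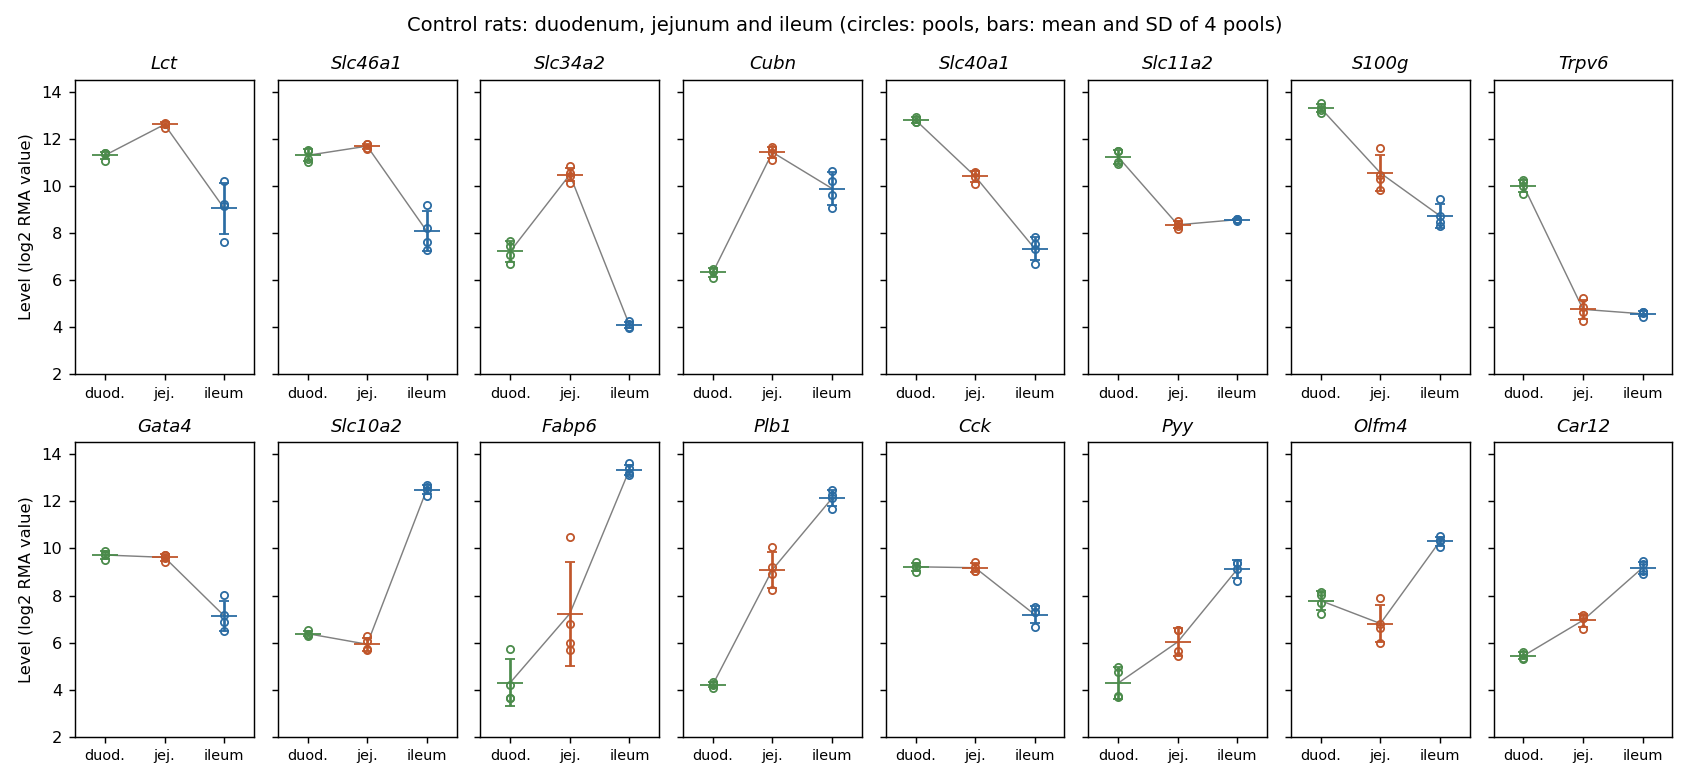
Level (log2 RMA value, y axis) of 16 genes in control duodenum, jejunum and ileum, with circles for pools and bars for mean and SD of 4 pools. Slc34a2 and Cubn peak in jejunum, Slc40a1, S100g and Trpv6 are highest in duodenum, and Slc10a2, Fabp6, Plb1, Pyy and Car12 are highest in ileum. Duodenal values are shown without a test.

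Of 28 measured gut hormone genes, 8 were called higher in jejunum (28.6%, against 7.74% of all named genes) and 7 higher in ileum (25%, near the 20.2% of all named genes). Cck, cholecystokinin, released by fat and protein in the upper gut, measured 9.41, 9.22, 9.04 and 9.04 in jejunum and 7.51, 6.66, 7.30 and 7.29 in ileum (1.99 ± 0.16, adjusted p = 0.0015). Pyy, peptide YY of the lower gut, measured 5.63, 6.52, 6.54 and 5.44 in jejunum and 9.12, 9.40, 9.37 and 8.60 in ileum (-3.09 ± 0.14, adjusted p = 2.83e-04). Neither gene overlapped between segments. Ghrelin, Ghrl (1.58 ± 0.14), and Gip, the incretin of the upper gut (1.08 ± 0.10), were higher in jejunum. Secretin, Sct, was higher in ileum with overlapping arrays (-0.85 ± 0.12), and its call ended in the fit without pairing and in the repeated measures analysis of variance.

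Among 32 transcription factors of gut position and cell lineage, 3 were called higher in jejunum (9.38%, near the 7.74% of all named genes). Another 11 were called higher in ileum (34.4%, against 20.2% of all named genes). Gata4, a factor of the upper intestine, measured 9.42, 9.73, 9.61 and 9.72 in jejunum and 7.16, 8.01, 6.50 and 6.88 in ileum. Pool 2 was the highest ileum pool, as for Scarb1 and Lct, and the segments were apart (2.49 ± 0.23, 5.6-fold, adjusted p = 0.00225). Gata6 differed by 0.57 ± 0.10. Nr5a2, a nuclear receptor of crypt cells and steroid synthesis, differed by -1.36 ± 0.10, Osr2 by -1.12 ± 0.11, and Atoh1, the factor of the secretory lineage, by -0.66 ± 0.12. Of 19 measured Hox genes, which set position along the body axis, 3 were called higher in ileum and 1 higher in jejunum, shares of 15.8% and 5.26% that lay near those of all named genes. The 3 were Hoxb9 (-1.54 ± 0.29), Hoxc9 (-1.12 ± 0.23) and Hoxb6 (-1.01 ± 0.27), and the 1 was Hoxd13 (0.41 ± 0.10). Each of these calls ended when pool 4 was left out. The mean level over the Hox genes was 4.03 to 4.34 on jejunum arrays and 4.21 to 4.55 on ileum arrays, ranges that overlapped.

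Genes of dividing cells were higher in ileum without exception among those measured. All 21 genes of mitosis and DNA replication were called higher in ileum, with a median of -1.64 and a mean level of 5.53 to 6.15 over jejunum arrays and 7.27 to 7.51 over ileum arrays. Top2a, the topoisomerase of replicating cells, measured 6.69, 5.99, 6.27 and 6.17 in jejunum and 8.27, 8.33, 8.22 and 8.58 in ileum. Jejunum pool 1 was the highest jejunum value and still lay well under the ileum (-2.07 ± 0.16, adjusted p = 0.00138). The checkpoint kinase Bub1 differed by -2.33 ± 0.17, the mitotic kinase Pbk by -2.42 ± 0.33 and Mki67, the standard marker of cycling cells, by -1.05 ± 0.19. Of 14 stem cell and crypt genes, 9 were called higher in ileum (64.3%, against 20.2% of all named genes), with a median of -0.88. Olfm4, a crypt base marker in human, measured 7.88, 5.97, 6.78 and 6.62 in jejunum and 10.06, 10.35, 10.31 and 10.51 in ileum. The ileum was uniformly high, and jejunum pool 1 was the highest and pool 2 the lowest of the jejunum (-3.50 ± 0.34, 11.3-fold, adjusted p = 0.00247). Prom1 differed by -2.03 ± 0.16 and Cd44 by -1.34 ± 0.13, whereas Ascl2, a factor of the stem cell itself, overlapped and was not called (-0.70 ± 0.23).

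In the Paneth, goblet and tuft cell lists the share called higher in ileum was 46.7%, 77.8% and 71.4%, against 20.2% of all named genes. Among gut hormone genes it was 25%. Of 30 Paneth cell and antimicrobial genes, 14 were called higher in ileum (median -0.62). The 3 called higher in jejunum made 10%, near the 7.74% of all named genes. Mmp7, the protease that activates defensins in mouse Paneth cells, measured 4.70, 3.99, 3.48 and 3.60 in jejunum and 8.77, 8.63, 8.64 and 8.18 in ileum. No array overlapped, and pool 1 was highest in both segments (-4.61 ± 0.18, 24.5-fold, adjusted p = 2.29e-04). The defensin RatNP-3b measured 9.30, 6.24, 7.25 and 5.0 in jejunum and 11.89, 10.81, 11.12 and 10.55 in ileum. Jejunum pools ranged far more widely than ileum pools, and the same pool order held in both segments (-4.15 ± 0.45, adjusted p = 0.00302). Defensin genes are near copies of each other, so the member that gave the signal is uncertain. Lysozyme, Lyz2, differed by -2.33 ± 0.21. Reg1a, a secreted lectin, was one of the 3 higher in jejunum. It measured 10.32, 9.77, 9.49 and 9.70 in jejunum and 5.87, 5.76, 6.31 and 6.63 in ileum (3.68 ± 0.25, adjusted p = 0.00101). The others were Wfdc21, a secreted whey acidic protein (2.74 ± 0.21), and Reg4 (0.80 ± 0.10).

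The epithelial oxidase that makes hydrogen peroxide at the luminal surface was strongly ileal. Its genes Duox2 and Duoxa2 were already counted in the Paneth cell and antimicrobial list, which is not limited to Paneth cells. Duox2, the enzyme, measured 4.74, 4.06, 4.26 and 4.51 in jejunum and 8.15, 8.40, 9.32 and 8.93 in ileum (-4.30 ± 0.25, adjusted p = 7.47e-04). Duoxa2, its maturation factor, measured 4.79, 4.59, 5.37 and 4.37 in jejunum and 7.09, 8.37, 9.57 and 9.22 in ileum (-3.79 ± 0.39, adjusted p = 0.00273). For both genes ileum pool 3 was the highest and ileum pool 1 the lowest ileal value, and no jejunum array reached either range.

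Of 18 goblet cell genes, 14 were called higher in ileum (median -0.54), among them the mucin Muc4 (-1.34 ± 0.14) and the mucin glycosyltransferase Gcnt3 (-1.11 ± 0.11). The trefoil peptide Tff3 was high in both segments, 12.83 and 13.02, and was not called (-0.19 ± 0.10). Of 14 tuft cell genes, 10 were called higher in ileum (median -0.67). Dclk1, a tuft cell marker, measured 6.15, 6.93, 6.44 and 6.28 in jejunum and 7.47, 7.95, 7.37 and 7.57 in ileum. Pool 2 was highest in both segments, and the groups were apart (-1.14 ± 0.11, adjusted p = 0.00224). Gnat3, the taste G protein of these cells, differed by -1.24 ± 0.16.

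In each immune cell list the share called higher in ileum was above the 20.2% of all named genes. Of 21 B cell and Peyer patch genes, 11 were called higher in ileum (52.4%). The 2 called higher in jejunum made 9.52%, near the 7.74% of all named genes. The median of the list was -0.57, with mean levels of 5.55 to 5.93 in jejunum and 6.13 to 6.64 in ileum. Ms4a1, the B cell antigen CD20, measured 4.35, 3.33, 3.79 and 3.34 in jejunum and 6.07, 6.44, 6.47 and 6.68 in ileum. The jejunum was near the low end and the ileum clearly above it (-2.71 ± 0.27, 6.56-fold, adjusted p = 0.0025). Ccl20, the epithelial chemokine over Peyer patches, differed by -1.65 ± 0.24. Cxcl13, the chemokine of B cell follicles, ranged from 4.85 to 7.72 in jejunum and from 8.55 to 9.31 in ileum (-2.69 ± 0.56), and lost its call without pool 2, 3 or 4. The 2 genes higher in jejunum were the signalling adaptor Blnk (1.73 ± 0.11) and Spib (0.57 ± 0.09), the latter not called without pairing. Of 9 plasma cell and IgA genes, 4 were called higher in ileum (44.4%) and 1 higher in jejunum (11.1%, near the share of all named genes). Ccl28, an epithelial chemokine that draws IgA plasma cells, differed by -1.86 ± 0.21 and Sdc1 by -1.36 ± 0.11. Ccr10, the receptor of Ccl28, was the 1 higher in jejunum (0.85 ± 0.11).

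T cell and cytotoxic lymphocyte genes were called higher in ileum in 15 of 28 and MHC class II genes in 8 of 11, with none higher in jejunum in either list. Their medians were -0.69 and -0.85. Ptprc, the pan-leukocyte antigen CD45, measured 8.43, 8.72, 8.40 and 8.39 in jejunum and 9.72, 9.67, 9.40 and 9.46 in ileum, with no overlap (-1.08 ± 0.10, adjusted p = 0.00212). Cd8a differed by -0.96 ± 0.12 and the class II gene RT1-Ba by -0.97 ± 0.14. Cd3d, a subunit of the T cell receptor complex, measured 7.55, 7.86, 7.43 and 5.86 in jejunum and 8.75, 8.45, 8.43 and 6.84 in ileum. Pool 4 was lowest in both segments, so that the groups overlapped while all 4 pools differed in the same direction (-0.94 ± 0.12, adjusted p = 0.00478), and the call ended without pairing. Myeloid genes were higher in ileum in 13 of 22 (median -0.59) and mast cell genes in 7 of 11 (median -0.49). Cd14, the lipopolysaccharide co-receptor, led the myeloid list with 5.36 ± 0.30 in jejunum and 8.35 ± 0.21 in ileum (SD, n = 4; difference -2.98 ± 0.19), and the general macrophage gene Cd68 was not called (-0.21 ± 0.13).

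Gpr15lg, the ligand that attracts lymphocytes bearing Gpr15, measured 6.03, 5.71, 6.12 and 5.27 in jejunum and 9.05, 9.06, 9.25 and 8.95 in ileum. The ileal values were nearly equal and far above the jejunum (-3.29 ± 0.13, 9.81-fold, adjusted p = 2.36e-04). Napsa, an aspartic protease known from lung and kidney, differed by -3.56 ± 0.25. Has2, which makes hyaluronan, measured 4.40, 5.19, 5.01 and 5.27 in jejunum and 7.75, 8.48, 8.14 and 8.78 in ileum. The pools kept the same order in both segments (-3.32 ± 0.10, 10-fold, adjusted p = 1.09e-04). The mitochondrial rhodanese Tst measured 6.12, 6.29, 6.07 and 6.08 in jejunum and 10.66, 10.71, 11.06 and 10.78 in ileum (-4.66 ± 0.12, adjusted p = 7.56e-05). Suox, the sulphite oxidase, measured 8.24 to 8.48 in jejunum and 11.31 to 11.98 in ileum (-3.30 ± 0.13). On the jejunal side, the genes among the 15 largest differences that belong to no list were, beside those above, the sugar phosphate exchanger Slc37a2 (4.83 ± 0.15), the nucleotide pyrophosphatase Enpp3 (4.17 ± 0.31) and the small GTPase Rab30 (4.00 ± 0.29).

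Markers of other cells that a scrape could hold moved with the segment as well. Of the smooth muscle, fibroblast and endothelial lists, 53.8%, 66.7% and 61.5% were called higher in ileum, against 20.2% of all named genes. Smooth muscle genes were called higher in ileum in 7 of 13 (median -0.63), with mean levels of 5.62 to 6.20 in jejunum and 6.10 to 6.58 in ileum, which overlapped. Their defining gene Myh11 measured 6.30 ± 0.23 and 7.07 ± 0.07 (SD, n = 4). Fibroblast and matrix genes were called higher in ileum in 12 of 18 (mean levels 6.47 to 7.11 and 7.15 to 7.70), and endothelial and lymphatic genes in 8 of 13 (5.47 to 5.96 and 5.93 to 6.46, overlapping). Enteric neuron and glia genes had 2 of 17 called each way, 11.8% against 7.74% (jejunum) and 20.2% (ileum) of all named genes. Their levels were 4.20 to 4.28 and 4.21 to 4.29. Of 10 adipocyte genes, 7 were called higher in jejunum, none higher in ileum, with a median of 1.10 and levels of 7.13 to 7.22 against 5.77 to 6.08. Several of these, such as the lipid droplet gene Cidec (2.55 ± 0.16), serve fat handling in other cells too, and the hormone of fat cells, Adipoq, measured 5.79, 6.41, 6.19 and 7.0 in jejunum and 4.70, 3.36, 3.84 and 4.40 in ileum (2.27 ± 0.31, adjusted p = 0.00541). Hepatocyte genes were called higher in jejunum in 6 of 15 at low levels (3.97 to 4.10 and 3.66 to 3.80), with Alb at 3.68 and 3.01. Of 15 pancreatic acinar genes, at 3.84 to 3.97 and 4.08 to 4.63, the trypsin inhibitor Spink1 alone was called (-2.01 ± 0.28). The granule protein Gp2, also a member of the B cell and Peyer patch list, lay at 2.91 and 2.85. The part of these cell types in the differences of the other lists was not tested.

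Of 15 clock genes, measured at a single hour of the day, 9 were called. The 5 higher in jejunum made 33.3%, against 7.74% of all named genes. The 4 higher in ileum made 26.7%, near the 20.2% of all named genes. Bmal1, the positive arm of the clock, differed by -1.07 ± 0.11 and Cry1, of the negative arm, by 0.97 ± 0.11. Among 20 immediate early and stress genes, 6 were higher in jejunum (30%) and 2 in ileum (10%, under the share of all named genes). Jun differed by 1.36 ± 0.16 and Gadd45b by -1.03 ± 0.12.

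**Figure D4:**
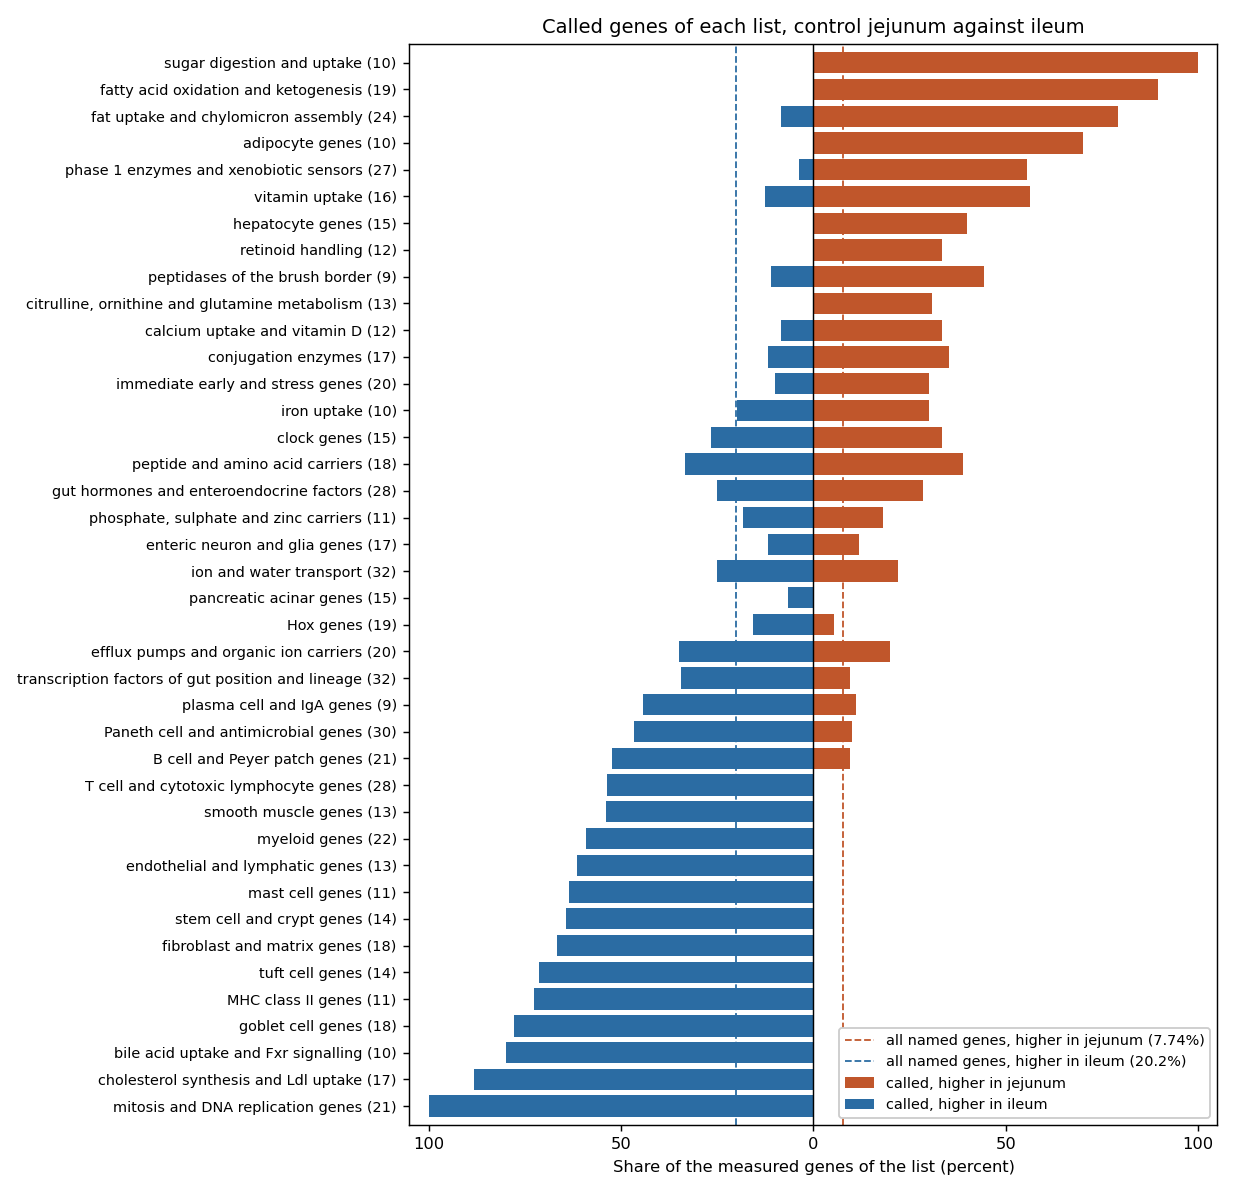
Share of the measured genes of each of 40 lists (number measured in parentheses) called higher in jejunum (orange, to the right) or higher in ileum (blue, to the left), in percent. Dashed lines give the shares over all named genes, 7.74% and 20.2%. Sugar digestion reaches 100% on the jejunal side and mitosis genes 100% on the ileal side.

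The same contrast was measured in the 4 lactating pools, which are other rats and share no array with the controls. There 5305 clusters were called (27.3%), 1591 higher in jejunum (8.19%) and 3714 higher in ileum (19.1%). Of the control calls, 3427 were called in the same direction in lactating pools, which was 79.5% of the control calls and 64.6% of the lactating calls, and 3 were called in the opposite direction. The sign was shared for 97.4% of the control calls. Over named genes the differences correlated at 0.902, a description across genes, which are not independent. Lct, for example, differed by 5.12 in lactating pools, Slc34a2 by 7.26, Slc10a2 by -7.24, Fabp6 by -7.97 and Olfm4 by -3.52. The lactating jejunum pools all had low Fabp6, 4.96 to 6.05, so that no pool there resembled control jejunum pool 1.

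The segment difference itself was tested between the states, and 8 clusters were called (0.0412%), 7 with a positive change (0.0360%) and 1 with a negative change (0.00515%). The 7 positive ones each had 1 symbol. The count and its split depended on the fit: 42 clusters were called with all 32 arrays and pool as a random block (21 positive and 21 negative), 63 in the repeated measures analysis of variance (33 and 30) and 22 among clusters with a group mean of at least 6 (12 and 10). Fgf19 had a difference of -7.81 in control and -5.68 in lactating pools, the lactating ileum measuring 10.07, 9.07, 8.81 and 9.08, and the change was 2.12 ± 0.24 (adjusted p = 0.0309). Trpv6 showed the largest change among the 7. It differed by 0.18 in control and 2.97 in lactating pools, where the jejunum measured 7.82, 7.95, 7.70 and 6.97 (change 2.78 ± 0.29, adjusted p = 0.0162). Slc11a2 went from -0.22 to 1.21 (change 1.44 ± 0.13, adjusted p = 0.00885). Has2 went from -3.32 to -1.47 (change 1.85 ± 0.22, adjusted p = 0.0354). Ces2c, Spib and Ecel1, an endothelin-converting enzyme-like protease that was in no list and was picked with its values in view, had control differences of 1.77, 0.57 and 0.80 and lactating differences of 3.55, 1.89 and 3.03. These calls rested on all pools: with a pool number left out of both states, 0 to 3 clusters were called.

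**Figure D5:**
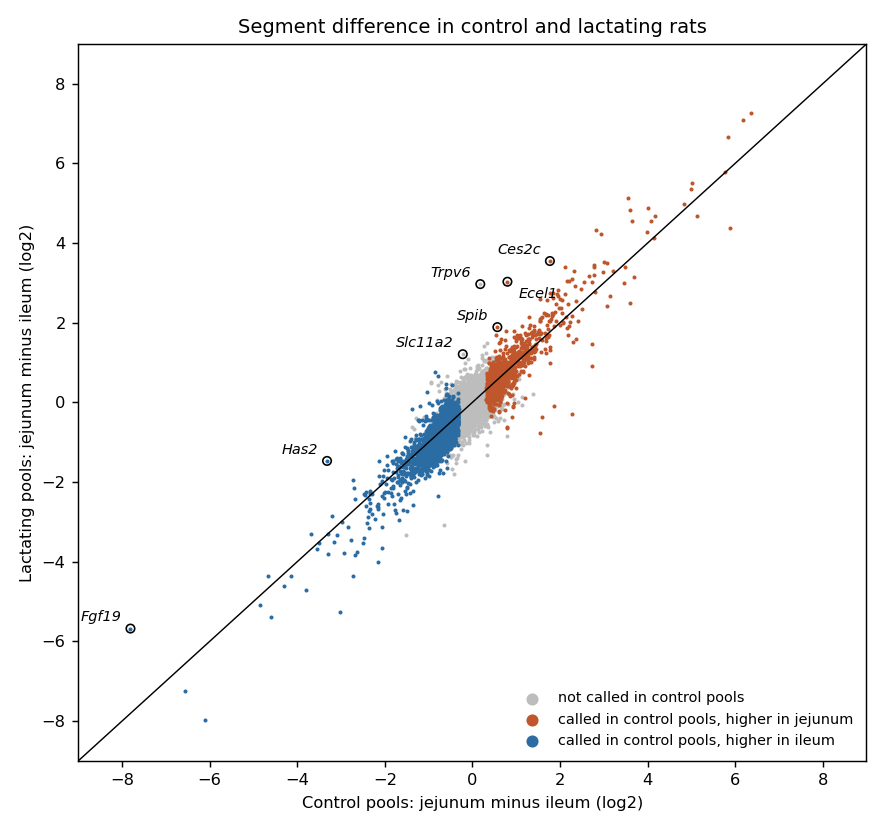
Jejunum minus ileum (log2) of each named gene in control pools (x axis) and lactating pools (y axis), with the line of equal difference. Colours give the control calls, and circles the 7 genes whose segment difference was called as changed between the states. Most genes lie along the line, and Fgf19 (-7.81 and -5.68) and Trpv6 (0.18 and 2.97) lie off it.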

How the data were processed

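RNA of 4 control pools of jejunum and ileum was hybridised to Affymetrix Rat Exon 1.0 ST arrays, 1 array per pool and tissue. The deposited values are log2 expression made by the authors with RMA in Affymetrix Expression Console at the extended gene level (background correction, quantile normalisation, summary across exons), and the versions used were not given in the sources used here. The number of arrays limits the precision. Gene symbols came from the platform annotation and RefSeq, and clusters with several symbols (612) or none (5487) were tested but not named. limma 3.58.1 in R 4.3.3 was fitted to the 8 control arrays with pool as a block (residual degrees of freedom 3), to the 8 lactating arrays likewise, and to all 16 for the segment by state interaction, with eBayes and Benjamini-Hochberg adjustment over 19434 clusters. Same-numbered pools hold the same rats, and their deviations from the segment means correlated at 0.0885 to 0.479 in control, against -0.26 to 0.081 for different numbers. Tested on simulated data, the control fit recovered 8% of differences of 0.5, 80% of 1, 98% of 2 and 100% of 4 among 19434 clusters, with 10 false calls. The simulation gave differences to a far smaller share of clusters than was called in the data. The adjusted p was therefore harder to meet there, and neither the recovery nor the number of false calls carries over to the data. Genes named in the text were the 15 largest called differences in each direction without overlap, the first and up to 4 called members per direction of each of 40 lists (691 of 972 entries measured), and all Hox and bile acid genes, and any other gene is said to have been picked with its values in view. Members and lists were chosen with earlier results of these data known. Alternatives changed the pairing, samples, filter, scaling, weights, threshold and each pool.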

Additional observations from a re-analysis of the deposited data

Results flagged for a closer look

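Among 532 groups of 4 arrays of named genes, 29 held 1 array far from the others by Dixon's criterion, and chance alone would give about 1 in 20. Pool 2 stood apart, high in ileum, for Fmo1 (5.45), Slc37a2 (5.67), Scarb1 (8.20), Abca1 (5.76), Ugt2b1 (4.65) and Cry1 (7.77), and low in ileum for Hoxd1 (4.99) and RT1-Ba (11.89). In jejunum it stood high for Scg2 (7.23) and Ptprc (8.72). Pool 1 stood apart in ileum, high for Hoxd10 (5.42) and low for RT1-DOb (6.21), Cd68 (6.20), Lum (6.21) and Myc (6.49). In jejunum it stood low for Bco1 (11.78), Bhlhe40 (10.00), Nr1d1 (9.45) and Tlr4 (3.98). Pool 3 stood low in ileum for Mme (12.30) and Cyp1a1 (6.53), high in ileum for Uchl1 (5.21), and low in jejunum for Idi1 (7.55) and Cyp1b1 (3.30). Pool 4 stood low in jejunum for Ugt2b35 (7.55), Arg1 (4.48) and Mpst (5.72), and low in ileum for Reg4 (10.74) and Cd3d (6.84).

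The jejunum minus ileum difference changed between control and lactating pools, by the limma interaction test with Benjamini-Hochberg adjustment, for 7 named genes. The change was 2.12 for Fgf19 (adjusted p = 0.0309), 1.78 for Ces2c (0.00885), 1.32 for Spib (0.0049), 2.78 for Trpv6 (0.0162), 1.85 for Has2 (0.0354), 1.44 for Slc11a2 (0.00885) and 2.23 for Ecel1 (0.0049). All 7 changes were positive, the value of jejunum minus ileum being greater in lactating pools, and Ecel1 belongs to no list and was singled out with its values in view. At an unadjusted p under 0.05 the interaction was met by 1923 of 19434 clusters, a threshold that many clusters would pass by chance alone. After adjustment 8 were called.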

How the results depend on the processing

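Of the 237 named genes called in control pools, none changed sign under any alternative run, whereas uncalled values near 0 could, such as Gpbar1 (-0.03, and 0.14 without pool 2). In control pools the count of calls, 4311, was 3553 without the replicate block (984 higher in jejunum, 2569 higher in ileum), 4427 against 5305 in lactating pools (1330 and 3097), and 10 against 8 for the interaction (6 positive and 4 negative, against 7 and 1). With array medians equal, calls higher in control jejunum were 1902 against 1230, and with quantile normalisation repeated calls higher in control ileum were 1990 against 3081 and those in lactating jejunum 2434 against 1591. Leaving out a pool number moved the control count to 2356 to 3552 (732 to 1003 higher in jejunum, 1607 to 2549 higher in ileum), with pools 2, 3 and 4 each lowering it by over 1.5 times (2533, 2624 and 2356). In lactating pools the range was 3460 (without pool 3) to 4119, with 1054 to 1151 higher in jejunum (1058 without pool 1, 1060 without pool 3, 1054 without pool 4) and 2400 (without pool 3) to 2968 higher in ileum. The interaction gave 0 to 3 calls (0 to 2 positive, 0 to 1 negative) with a pool number left out, which also leaves fewer arrays. It gave 42 (21 and 21) with all 32 arrays and pool as a random block, 63 (33 and 30) in the repeated measures analysis of variance, 22 (12 and 10) among clusters with a group mean of at least 6, and 533 (236 and 297) at an unadjusted p under 0.01, and the cause was not tested. Of those 237 genes, 185 kept their call in every alternative run and 52 lost it in at least 1, 15 of them without the replicate block and 37 without pool 4. With 4 pools, the reach for small differences was not measured. The recovery of 8% of simulated differences of 0.5 cannot give it, because the simulation gave differences to a far smaller share of clusters than was called.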

Other observations

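The following genes were picked one by one with their values in view, so that their directions describe those genes and no group. Mpst, a mercaptopyruvate sulphurtransferase, measured 6.64, 6.70, 6.54 and 5.72 in jejunum and 8.25, 8.48, 8.58 and 8.17 in ileum (-1.97 ± 0.15, limma adjusted p = 0.0014). Ethe1, the mitochondrial persulphide dioxygenase, differed by -1.33 ± 0.12. The transsulphuration enzymes Cbs (-0.94 ± 0.15) and Cth (-0.83 ± 0.10) were called higher in ileum. Cdo1, which oxidises cysteine, was higher in jejunum (1.58 ± 0.13), and the sulphate carrier Slc26a2 was not called (0.31 ± 0.10).

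Some genes of microbial sensing and innate defence were picked in the same way, and nothing follows from them for such genes at large. Tlr4, the lipopolysaccharide receptor, measured 3.98, 4.28, 4.31 and 4.31 in jejunum and 5.71, 5.84, 6.29 and 6.24 in ileum (-1.80 ± 0.11, limma adjusted p = 7.47e-04). The flagellin receptor Tlr5 differed by -1.74 ± 0.10, complement C3 by -2.73 ± 0.18 and the ubiquitin-like protein Ubd by -2.93 ± 0.22. The interferon-induced chemokines Cxcl9 and Cxcl10 differed by -2.07 ± 0.33 and -1.04 ± 0.17. Tlr2 (-0.75 ± 0.17), Tlr3 (-0.45 ± 0.09) and Nos2 (-0.78 ± 0.20) lost their calls without pool 3 or pool 4.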
